A study of Mus musculus with 8 samples.

Results

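The trimethylation of histone H3 at lysine 9 (H3K9me3) over the mouse gene *Tcf4* was examined in colon crypts with and without the chromatin remodeler Smarcad1. A *Tcf4* peak was any H3K9me3 peak whose deposited annotation names *Tcf4* as the closest gene within 5 kb, which selected 21 of 53761 peaks, all of them overlapping the gene. *Tcf4* (ENSMUSG00000053477) lies on the forward strand of chromosome 18 at chr18:69343356-69689079 (GRCm38, GENCODE vM21), a length of 345.7 kb. It was chosen for its large differences between the genotypes, so its fold changes are given as a description of the gene and its calls are read beside those of all peaks. The peaks themselves were also selected on measured values, since MACS found them once, on all ChIP libraries of both genotypes against both inputs. A stretch of *Tcf4* that carries H3K9me3 in only one genotype could thus become a peak.

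The study deleted *Smarcad1* in the intestinal epithelium of C57BL/6 mice and asked how H3K9me3 changes across the genome. The KO group carried *Smarcad1* alleles with loxP sites around exons needed for ATP binding, removed by a Cre recombinase under the *Villin* promoter (*Vil-cre*), and the control group was wild type (WT). H3K9me3 was measured by ChIP-seq, which sequences the DNA that an antibody against the mark pulls down, in 3 libraries per genotype, beside 1 library of input DNA per genotype. The sources used here do not give the age of these mice, and do not say whether the WT animals carried Cre or floxed alleles. The material was whole crypt suspension that was not sorted, so it can hold cells in which *Vil-cre* is not active. Cell type markers could not be checked, because a histone mark does not report which genes a cell transcribes, and *Smarcad1* itself had 0 peaks, so the deletion could not be checked in these libraries either.

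H3K9me3 is a mark of condensed, silent chromatin. It is best known from repeats near centromeres, from retrotransposons and from clusters of zinc finger genes, where HP1 proteins bind it and help it to spread and to persist through DNA replication. *Tcf4* encodes an E protein (also called E2-2), a basic helix-loop-helix (HLH) transcription factor that binds E-box DNA as a dimer. E proteins pair with each other or with tissue-restricted HLH factors, and Id proteins, which lack the DNA-binding region, hold them inactive. *Tcf4* is known for the development of plasmacytoid dendritic cells and of the nervous system. It is a different gene from *Tcf7l2*, the Wnt pathway factor of the intestinal epithelium whose protein is also called TCF4. *Tcf4* is a long gene with many alternative promoters, and GENCODE lists 46 protein-coding transcripts of it. In the small intestine, the study named *Tcf4* and *Fat1* among genes that gained H3K9me3 within their gene body in KO. It reported no change in their expression. Gene expression was not examined here.

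Each ChIP value is the log2 of the reads over a peak, after the ChIP libraries had been brought to one common distribution. Counting the steps of these values showed that the median peak held 14 to 20 reads in a library. At the 14 *Tcf4* peaks with at most 100 reads in every library, WT libraries held 2 to 30 reads (median 10.5) and KO libraries 16 to 95 (median 43.0). KO and WT were compared at all 53761 peaks with limma, two-sided, and a peak counted as called at a Benjamini-Hochberg adjusted p under 0.05 over all of them. By this rule 0.796% of all peaks were increased in KO and 0.863% were decreased. The study describes the 3 libraries of a genotype as biological replicates, and the labels give no animal for a library. A higher value may reflect more cells with the mark or more of it per cell, and these cannot be told apart in bulk chromatin.

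H3K9me3 was higher in KO at most of the *Tcf4* peaks, which together cover 45.3% of the gene. The mean log2 read count over the 21 peaks was 4.20, 4.01 and 4.03 in WT replicates 1 to 3 and 6.27, 6.48 and 5.75 in KO replicates 1 to 3. WT libraries averaged 4.08 ± 0.10 (SD, n = 3). KO libraries averaged 6.17 ± 0.37 (SD, n = 3), a difference of 2.09 on the log2 scale or 4.25-fold. The lowest KO library thus stood well above the highest WT library. Of the 21 peaks, 19 were called increased (90.5%), beside 0.796% of all peaks. None was called decreased, beside 0.863% of all peaks, and 0 were decreased at an unadjusted p under 0.05 in limma. A voom fit to the recovered reads tested 14 of the 21 peaks, leaving out those above 100 reads, and called 0 of them decreased. At the same 19 peaks every KO value lay above every WT value, which held for 7.2% of all peaks. The gap from the highest WT to the lowest KO value at these peaks ran from 0.10 to 2.17 on the log2 scale. The log2 fold changes of the 19 peaks ran from 1.46 to 3.05, or 2.75-fold to 8.26-fold, compared to a median of 0.00 over all peaks, and reached at least 2 at 12 of them. Only 77 of all 53761 peaks had a log2 fold change of at least 2. Each of the 19 lay at or above the 99.6th percentile of log2 fold changes, and together they made up 4.44% of the 428 increased peaks.

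**Figure D1:**
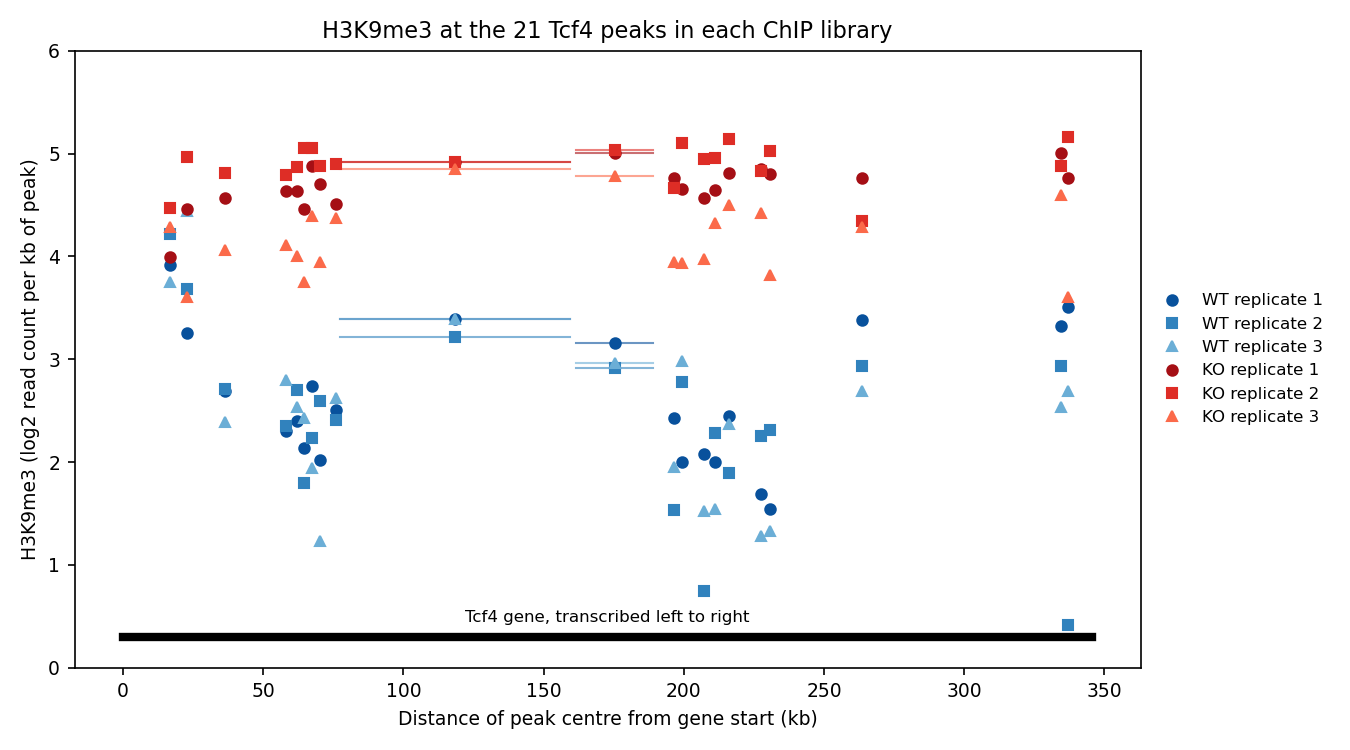
H3K9me3 at each of the 21 *Tcf4* peaks in each ChIP library, as log2 read count per kb of peak (y axis), against the distance of the peak centre from the gene start (x axis, kb); circles, squares and triangles are replicates 1, 2 and 3, WT in blue and KO in red, and horizontal lines show the extent of the peaks wider than 10 kb. Per kb, KO means stay between 4.25 and 4.94 along the gene while WT means range from 1.45 to 3.96, and the genotypes overlap only at the 2 leftmost peaks.

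The 5' end of the gene carried no peak in its first 16.2 kb, where 21 of the 46 coding transcripts start. The first peak followed within intronic sequence at chr18:69359551-69360900, with log2 read counts of 4.35, 4.65 and 4.19 in WT and 4.43, 4.91 and 4.72 in KO. The second, also intronic, lay at chr18:69365701-69366900 with 3.52, 3.95 and 4.70 in WT and 4.73, 5.23 and 3.86 in KO. These were the peaks at which the genotypes overlapped, and neither passed the test. Their log2 fold changes were 0.29 (SE 0.25, limma adjusted p = 0.747) and 0.55 (SE 0.30, limma adjusted p = 0.532). In WT they were also the peaks of *Tcf4* with the highest level for their length, at 3.96 and 3.79 log2 read counts per kb, close to the median of 3.97 over all peaks.

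The first called peak began 34.8 kb into the gene, within intronic sequence at chr18:69378151-69381300. Its log2 read counts were 4.35, 4.37 and 4.05 in WT and 6.23, 6.47 and 5.72 in KO, with a log2 fold change of 1.88 (SE 0.21, limma adjusted p = 4.3e-09). After a gap of 17.55 kb came a run of 6 peaks with little space between them. The first of the run, at chr18:69398851-69404100, had log2 read counts of 4.70, 4.75 and 5.19 in WT and 7.03, 7.19 and 6.50 in KO, a log2 fold change of 2.03 (SE 0.18). Next to it, chr18:69404251-69406200 had 3.37, 3.67 and 3.50 in WT and 5.60, 5.83 and 4.97 in KO, a log2 fold change of 1.96 (SE 0.26). In every one of these peaks KO replicate 2 was the highest and KO replicate 3 the lowest of the KO libraries. The peak at chr18:69406951-69409050 had log2 read counts of 3.20, 2.87 and 3.50 in WT and 5.53, 6.12 and 4.82 in KO, a log2 fold change of 2.30 (SE 0.28). At chr18:69409501-69412200 they were 4.18, 3.67 and 3.38 in WT and 6.31, 6.49 and 5.83 in KO, with a log2 fold change of 2.47 (SE 0.23). WT levels in this run were low for the width of the peaks, between 1.95 and 2.55 log2 read counts per kb, and lay far under the KO levels in each library. The peak at chr18:69412351-69414900, which overlaps 1 exon block of the coding transcripts (overlapping exons merged), had 3.37, 3.95 and 2.59 in WT and 6.06, 6.23 and 5.30 in KO, a log2 fold change of 2.56 (SE 0.28). The last, at chr18:69418201-69420600, had 3.77, 3.67 and 3.89 in WT and 5.77, 6.16 and 5.64 in KO, a log2 fold change of 2.08 (SE 0.23). Limma adjusted p-values in the run lay between 4.64e-12 and 3.46e-07.

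The middle of the gene was covered by 2 broad domains. The first, chr18:69420601-69502800, begins at the base after the last peak of the run, is 82200 bp wide and was the fifth widest of all peaks. Its log2 read counts were 9.75, 9.57 and 9.75 in WT and 11.28, 11.28 and 11.21 in KO, the closest agreement between replicates of any *Tcf4* peak. The log2 fold change was 1.56 (SE 0.08, limma adjusted p = 1.19e-20), or 2.95-fold after the libraries were brought to one distribution. It overlaps 4 exon blocks and the starts of 5 coding transcripts. The second domain, chr18:69504901-69532500, is 27600 bp wide and overlaps 4 further exon blocks and 11 transcript starts. Its log2 read counts were 7.94, 7.70 and 7.75 in WT and 9.79, 9.82 and 9.57 in KO, with a log2 fold change of 1.93 (SE 0.10, limma adjusted p = 1.56e-20). Together the domains made up 70.1% of the 156.6 kb under *Tcf4* peaks. They include all 16 coding transcript starts that lie under a peak; of the other starts, 9 lie downstream of the first peak but outside any.

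Beyond the domains lay a second run of 7 intronic peaks, which start 195.0 to 230.1 kb from the gene start and include the 5 largest fold changes of the gene. The peak at chr18:69549301-69552000 had log2 read counts of 3.52, 2.18 and 2.96 in WT and 6.00, 6.38 and 5.41 in KO, a log2 fold change of 3.05 (SE 0.29, limma adjusted p = 2.9e-11) or 8.26-fold. In reads, this was 10, 5 and 9 in the WT libraries against 53, 95 and 44 in the KO libraries. At chr18:69569551-69572400 the log2 read counts were 3.20, 3.77 and 2.79 in WT and 6.36, 6.34 and 5.93 in KO, with a log2 fold change of 2.96 (SE 0.24, limma adjusted p = 4.88e-13). The WT libraries held 8, 15 and 8 reads there, beside 30 in the WT input, which was not scaled to the ChIP libraries. The peak at chr18:69573451-69575100 had 2.27, 3.04 and 2.05 in WT and 5.53, 5.75 and 4.55 in KO, a log2 fold change of 2.82 (SE 0.33). At chr18:69552001-69556800, which touches the first of these peaks, the log2 read counts were 4.27, 4.54 and 3.80 in WT and 6.91, 7.22 and 6.59 in KO and the log2 fold change was 2.70 (SE 0.20). Neighbouring peaks such as these can share sequenced fragments and are not independent. The peaks at chr18:69558001-69560700 and chr18:69538351-69541500 had log2 fold changes of 2.58 (SE 0.22) and 2.49 (SE 0.24). Their log2 read counts were 3.88, 3.33 and 3.80 in WT and 6.25, 6.58 and 5.93 in KO for the first and 4.09, 3.19 and 3.61 in WT and 6.42, 6.33 and 5.60 in KO for the second. The narrowest peak of this run, chr18:69542251-69543450, had 2.27, 3.04 and 3.25 in WT and 4.92, 5.36 and 4.20 in KO, a log2 fold change of 1.98 (SE 0.33, limma adjusted p = 6.9e-05). The smallest limma adjusted p of this run was 6.61e-15, and its 7 peaks all passed.

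Peaks were sparse towards the 3' end. After 31.2 kb without a peak, an intronic peak at chr18:69606301-69607500 had log2 read counts of 3.65, 3.19 and 2.96 in WT and 5.03, 4.60 and 4.55 in KO. It had the smallest difference among the called peaks, with a log2 fold change of 1.46 (SE 0.30, limma adjusted p = 0.0017). A further 69.0 kb without a peak separated it from a pair close to the end of the gene. The first of the pair, chr18:69676501-69679200, overlaps 1 exon block and had 4.76, 4.37 and 3.97 in WT and 6.43, 6.31 and 6.03 in KO, a log2 fold change of 1.89 (SE 0.21, limma adjusted p = 2.14e-09). The second, chr18:69679651-69680850, had 3.77, 0.68 and 2.96 in WT and 5.03, 5.42 and 3.86 in KO, a log2 fold change of 2.30 (SE 0.45, limma adjusted p = 0.00073). WT replicate 2 held 2 reads at this last peak, and without it the log2 fold change was 1.41 (limma adjusted p = 0.015). With input subtracted it no longer passed, at 1.82 (limma adjusted p = 0.0768). A limma variance prior without a mean trend left 3 of the 19 peaks above the threshold, with adjusted p = 0.0764 at chr18:69542251-69543450, 0.0785 at chr18:69606301-69607500 and 0.351 at chr18:69679651-69680850. The last peak ends 8.23 kb before the end of the gene. In all, 17 of the 21 peaks lay outside coding transcript exons, and peaks touched 10 of the 34 exon blocks.

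Levels for a given length were more alike between peaks in KO than in WT. Per kb of peak, the 19 called peaks had KO means between 4.42 and 4.94 log2 read counts (SD over peaks 0.16), above the 75th percentile of all peaks (4.15). Their WT means were spread from 1.45 to 3.33 (SD over peaks 0.50), below the 25th percentile of all peaks (3.80). A peak had to reach the threshold of the peak caller in the pooled libraries, which bounds the KO level from below where WT is low. Low counts also vary more on the log2 scale. At the 14 peaks with at most 100 reads in every library, the median was 10.5 reads in WT and 43.0 in KO. The part of counting noise in the wider WT spread was not tested. Across the 21 peaks, which share the same libraries, the log2 fold change had a Spearman's rho of 0.44 and a Pearson's r of 0.43 with the distance from the gene start. With the log2 of the width, rho was 0.20 and r was 0.05. With the share of repeat-masked bases, rho was -0.20 and r was -0.56. The first, uncalled peak had both the highest share, 60.8% beside at most 30.1% in the others, and the lowest log2 fold change, 0.29. The correlations were not computed without it.

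The KO libraries differed among themselves at *Tcf4*. KO replicate 2 was the highest KO library at 17 of the 21 peaks and KO replicate 3 the lowest at 20. Over all peaks KO replicate 3 was the lowest KO library at 32.4% and KO replicate 2 the highest at 32.8%. At the 409 other increased peaks, KO replicate 3 was the lowest KO library at 70.4% and KO replicate 2 the highest at 67.7%. Among the WT libraries, replicates 1, 2 and 3 were highest at 8, 7 and 6 of the *Tcf4* peaks. Leaving out KO replicate 3 raised the mean difference over the gene to 2.29, and leaving out KO replicate 2 lowered it to 1.93 on the log2 scale. The 19 calls were counted again whichever of the 6 libraries was left out.

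The input libraries showed no such gain over *Tcf4*. Summed over the 21 peaks, the WT input held 1408 reads and the KO input 1394, a KO to WT ratio of 0.990, compared to 0.943 over all peaks. Per kb these were 8.99 and 8.90 reads, near the 9.38 and 8.85 reads per kb over all peaks. The KO input was higher than the WT input at 11 peaks, lower at 9 and equal at 1. There was 1 input library per genotype, so the ratio has no replicate error.

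In WT, ChIP signal over *Tcf4* was low even against input. The mean WT ChIP minus WT input was -0.65 on the log2 scale over the 21 peaks, from -1.65 to 0.73, and lay below 0 at 18 of them. Over all peaks the median was 0.79 and 3.19% lay below 0. As the input values were not scaled to the ChIP libraries, 0 on this scale does not mark the absence of enrichment, and only the place among all peaks is read here. The median *Tcf4* peak stood at the 0.189th percentile in WT, and 19 of the 21 stood below the 10th. In KO, ChIP minus input was 1.35 on average, from 0.69 to 1.84, with the median *Tcf4* peak at the 77.9th percentile and 3 peaks above the 90th. The lowest value in KO belonged to the first, uncalled peak. The other increased peaks of the genome also stood low in WT, with a median of -0.07 there and 1.37 in KO. Since peaks were called against input on the libraries of both genotypes, these levels are a description and were not tested.

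**Figure D2:**
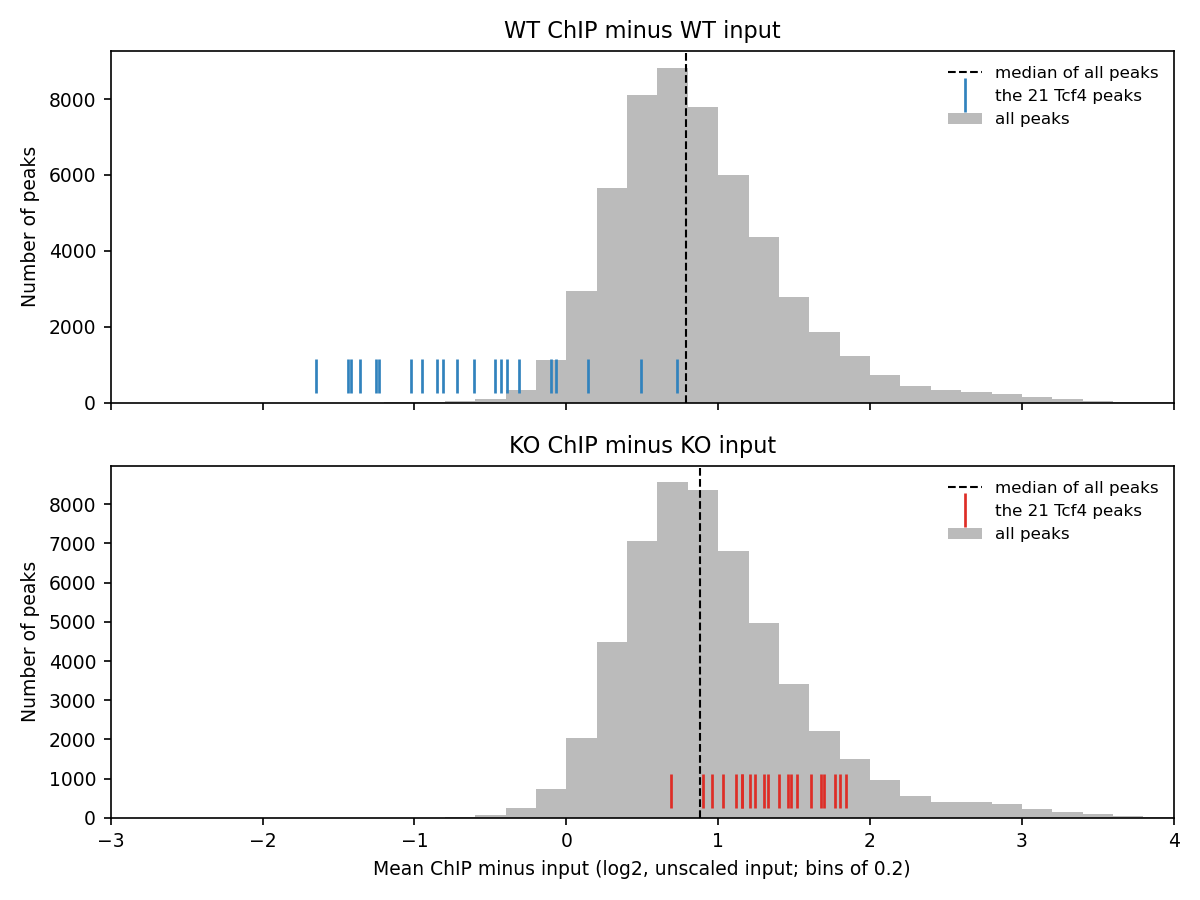
Mean ChIP minus input on the log2 scale (x axis, bins of 0.2, drawn from -3 to 4) for all 53761 peaks (grey bars, y axis: number of peaks), with the 21 *Tcf4* peaks as coloured ticks and the median of all peaks as a dashed line, WT above and KO below. The *Tcf4* ticks lie left of the median of 0.79 in WT, and 20 of the 21 lie right of the median of 0.88 in KO.

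Peaks around the gene were compared in the same fit. Within 2 Mb of the outermost *Tcf4* peaks there were 53 other peaks, 21 upstream and 32 downstream, and 0 of these were called by limma in either direction, beside 1.66% of all peaks, so that a count of 0 among 53 is near the share of all peaks. At an unadjusted p under 0.05 in limma there were 6, beside 10.6% of all peaks, with 4 decreases upstream and 2 increases downstream, and a voom fit called 0. Median log2 fold changes were -0.29 upstream and 0.04 downstream. Upstream, the nearest peak lay 23.1 kb before the gene start at chr18:69317701-69320250, outside any gene, with log2 read counts of 5.07, 5.25 and 5.41 in WT and 5.37, 5.30 and 5.67 in KO. Its log2 fold change was 0.20 (SE 0.19, limma adjusted p = 0.793), so the genotypes overlapped there. The next, chr18:69180451-69181800, had a log2 fold change of -0.25 (SE 0.25, limma adjusted p = 0.801). The third, chr18:68961601-68962500, had the lowest log2 fold change of the flanks, -1.13 (SE 0.33, limma adjusted p = 0.0623). Without KO replicate 1 it passed the threshold as a decrease, at -1.43 (limma adjusted p = 0.0153). Downstream, no peak followed for 280.2 kb. The nearest, at *Ccdc68* (chr18:69969301-69970650), had log2 read counts of 3.88, 4.54 and 4.79 in WT and 4.25, 3.35 and 3.86 in KO, a log2 fold change of -0.59 (SE 0.30, limma adjusted p = 0.490). The peak at *Rab27b* (chr18:70013701-70014600), a small GTPase of vesicle transport, had 3.77, 3.67 and 3.71 in WT and 4.16, 4.48 and 4.28 in KO. Although these values did not overlap, the log2 fold change of 0.59 (SE 0.29, limma adjusted p = 0.465) did not pass the test. The third downstream peak, chr18:70215601-70217250, had a log2 fold change of -0.34 (SE 0.24, limma adjusted p = 0.688). Of the 53 flanking peaks 2 lay below input in WT, and their median WT ChIP minus input was 0.81, near that of all peaks.

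**Figure D3:**
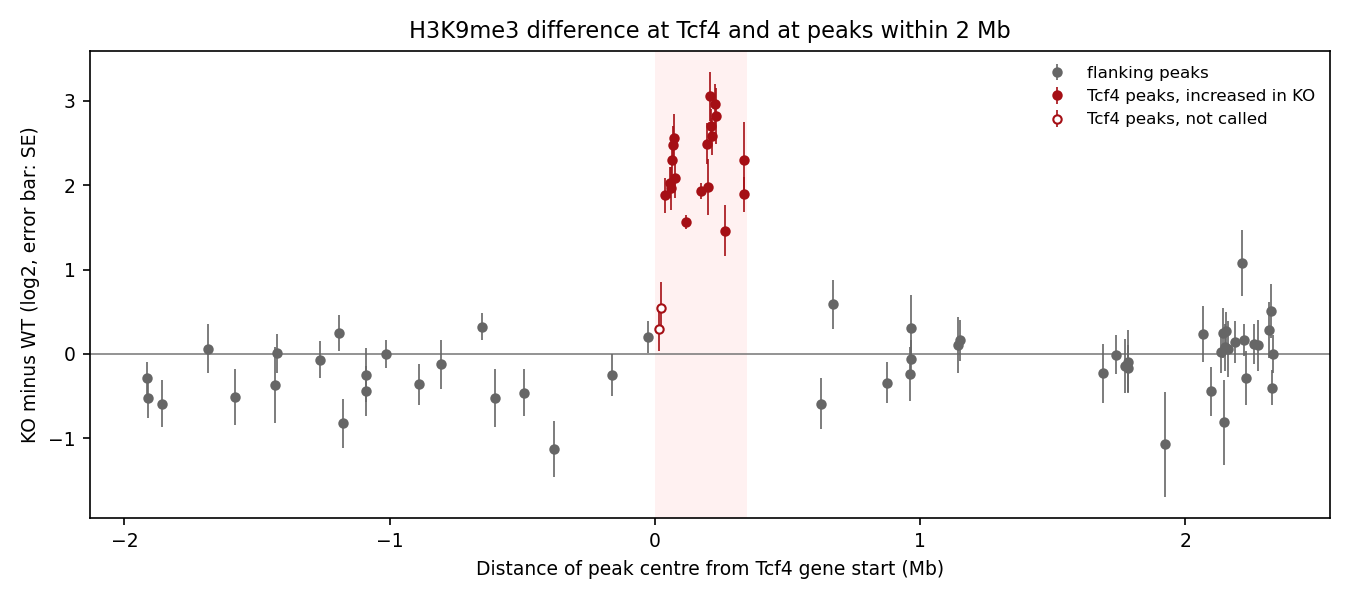
KO minus WT difference in log2 read count (y axis, error bars: SE from limma) for the *Tcf4* peaks (red) and the 53 other peaks within 2 Mb (grey), against the distance of the peak centre from the *Tcf4* gene start (x axis, Mb; the gene is shaded). The 19 called *Tcf4* peaks (filled red) lie between 1.46 and 3.05, and the flanking peaks between -1.13 and 1.08.

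The *Tcf4* peaks held few repeats, with 20 of the 21 below the median of all peaks. Repeat-masked bases made up a median of 14.8% of a *Tcf4* peak, compared to 37.8% over all peaks, 32.6% in the flanks and 39.4% in the decreased peaks. The 409 other increased peaks had a median of 15.6%. Masked shares of the called *Tcf4* peaks ran from 4.17% to 29.9%, while the first, uncalled peak had 60.8%. The gene between its peaks was similar to the peaks, with 17.5% masked bases over 189124 bp. GC content was 42.8% at the median *Tcf4* peak, compared to 41.9% over all peaks and 46.0% in the other increased peaks. CpG dinucleotides stood at a median of 14.4 per kb in *Tcf4* peaks, compared to 6.67 per kb over all peaks and 16.5 in the other increased peaks, and at 12.4 per kb in *Tcf4* outside them. These values describe the sequence, and their part in the difference between the genotypes was not tested.

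Other genes of the E protein network were looked up among the same peaks. Of 48 listed genes, which cover the other E proteins, Id proteins, tissue-restricted HLH partners, E protein cofactors and the TCF/LEF genes, 6 had a peak, with 10 peaks in all. Limma called 0 of them, beside 1.66% of all peaks, which is near the background for 10 peaks. There was 1 at an unadjusted p under 0.05, beside 10.6% of all peaks, and voom called 0. Their median log2 fold change was -0.09. *Tcf12*, a second E protein (HEB), had 1 peak at chr9:72068251-72070200 with log2 read counts of 5.26, 5.44 and 4.84 in WT and 4.34, 5.26 and 5.10 in KO. There the genotypes overlapped, with a log2 fold change of -0.28 (SE 0.23, limma adjusted p = 0.738). *Tcf3*, the third E protein, and the 4 Id genes had no peak. Among the TCF/LEF factors, which act at the end of the Wnt pathway, *Tcf7l2* had 1 peak at chr19:55833451-55834200 with 4.27, 3.86 and 3.97 in WT and 3.71, 3.19 and 2.84 in KO. Its log2 fold change was -0.78 (SE 0.34, limma adjusted p = 0.362), which was the 1 peak under an unadjusted p of 0.05. *Tcf7l1*, a repressor of the same family, had 1 peak at chr6:72732901-72733650 with a log2 fold change of -0.33 (SE 0.36, limma adjusted p = 0.820). The remaining peaks belonged to *Cbfa2t2* and *Runx1t1*, corepressors of the ETO family that bind E proteins, and to *Twist1*, an HLH factor of mesenchyme.

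Among the 497 genes with at least 5 peaks, *Tcf4* had the second largest mean log2 fold change. The 5 genes closest to it were found from the mean deviation of each library from the mean of each peak, by the root mean square difference to *Tcf4* over the 6 ChIP libraries. These were *Stox2*, a winged helix gene, at a distance of 0.16 on the log2 scale, *Fat1*, an atypical cadherin, at 0.17, *Wwc2*, a WW domain gene of the Hippo pathway, at 0.21, and *Tspan5*, a tetraspanin, and *Bcl11b*, a zinc finger factor of T cells, both at 0.22. Mean log2 fold changes were 1.90 over 11 peaks of *Stox2*, 2.33 over 8 peaks of *Fat1*, 1.69 over 16 peaks of *Wwc2*, 1.68 over 10 peaks of *Tspan5* and 1.73 over 7 peaks of *Bcl11b*. Of these peaks 8, 7, 14, 8 and 5 were called increased, respectively, and 0 were called decreased. Like *Tcf4*, each had a median WT ChIP minus input below 0, from -1.21 in *Fat1* to -0.28 in *Bcl11b*, and a median repeat-masked share between 12.5% and 17.4%. KO replicate 3 had the lowest KO deviation in all 6 genes, at 0.63 in *Tcf4* and between 0.26 and 0.62 in the others. *Stox2*, *Fat1* and *Wwc2* all lie on chromosome 8, *Tspan5* on chromosome 3 and *Bcl11b* on chromosome 12. Genes on the same chromosome need not be separate matches, and how close their peaks lie was not examined. The 5 genes were chosen for their likeness in the same 6 libraries, so the match is a description and was not tested.

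**Figure D4:**
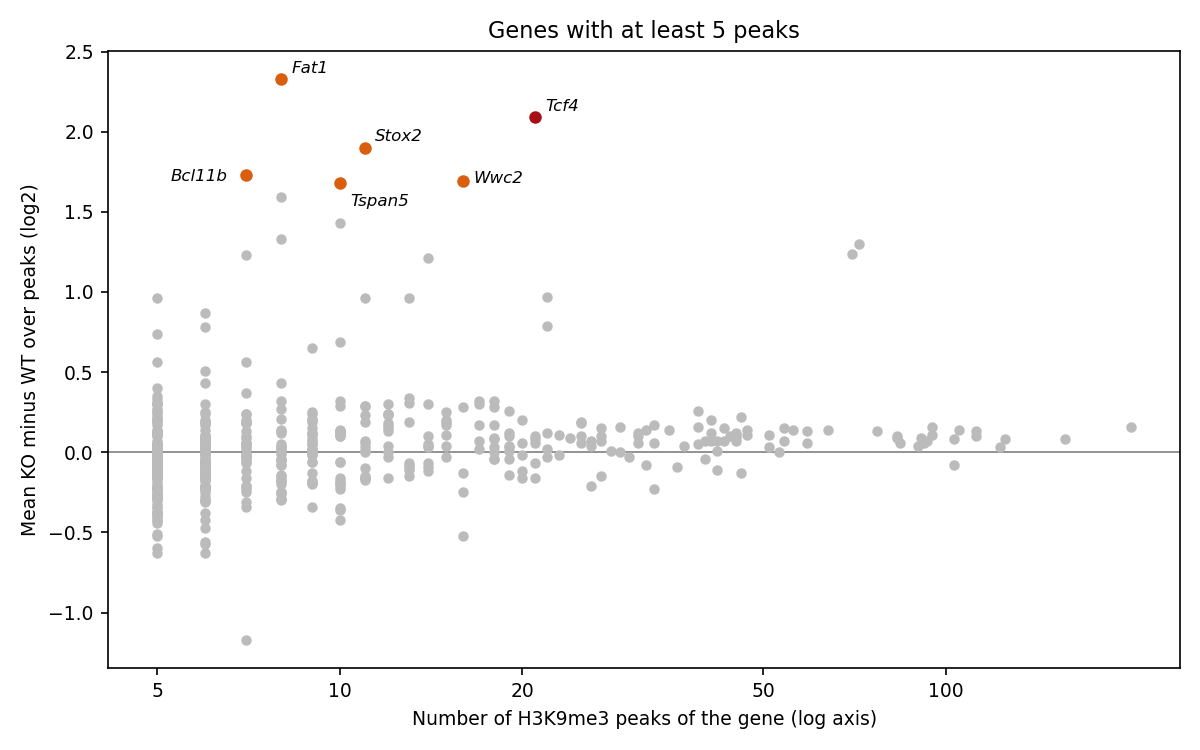
Mean KO minus WT difference over the peaks of a gene (y axis, log2) against its number of H3K9me3 peaks (x axis, log scale) for the 497 genes with at least 5 peaks (1 point each), with *Tcf4* in red and the 5 genes with the closest profile in orange. *Tcf4* (2.09 over 21 peaks) lies below *Fat1* alone.

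**Figure D5:**
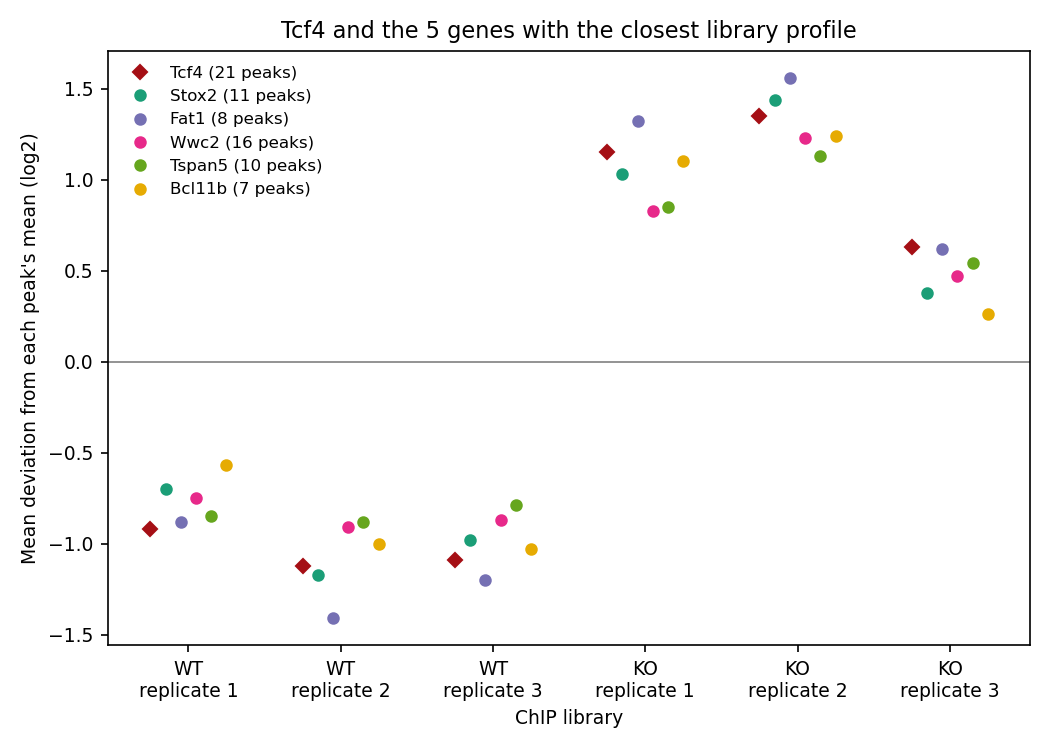
Mean deviation of each ChIP library (x axis) from the mean of each peak (y axis, log2) for *Tcf4* (diamonds) and the 5 genes with the closest profile (circles), shifted sideways for view. In each gene the 3 WT libraries lie below 0 and the 3 KO libraries above 0, with KO replicate 3 the lowest of the KO libraries.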

How the data were processed

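H3K9me3 ChIP-seq libraries of colon crypts (3 WT, 3 *Smarcad1*-KO) and 1 input per genotype were analysed, grouped by their labels. The authors trimmed reads, mapped them to GRCm38 with Bowtie 2, filtered by mapping quality and dropped duplicates. MACS peaks were called in SeqMonk, once for all ChIP libraries and against both inputs. Read length and pairing differ between the labels and the methods. The deposited ChIP values are log2 counts of reads in a peak, after the authors gave the libraries one common distribution, so an equal shift of most peaks would not be visible. The deposited inputs are log2 of whole, unscaled counts, with 0 for 0 or 1 read. A table with the authors' p-values and fold changes was not used. In the tables used, 0 columns lacked a sample.

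Genotypes were compared over all peaks with limma 3.58.1 (R 4.3.3), two-sided, with only genotype in the model and a variance prior that follows the mean. The threshold was 0.05 for the p adjusted by Benjamini-Hochberg over all peaks. The authors' edgeR test needs counts, which the table does not hold. The script was tested on simulated log2 values with normal noise rather than read counts, which does not check the calls at low counts. Reads behind a ChIP value were recovered from its steps up to 100 reads. Exons came from GENCODE vM21, and GC, CpG and soft-masked bases, taken as repeats, from GRCm38. No sequence is printed. Summaries used Python 3.11.15, pandas 2.3.3, numpy 2.4.6 and scipy 1.17.1.

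The gene, the gene lists and the tests were chosen with earlier results of these data known. Named are every *Tcf4* peak, the 3 nearest flanking peaks on each side and flanking peaks that pass, E protein and TCF/LEF genes with a peak, other listed genes with a passing peak, and the 5 genes with at least 5 peaks closest in profile. The genes of listed peaks that did not pass are named in addition, after their values were seen. Alternatives were a prior without trend, a mean log2 value of at least 4, an adjusted p under 0.01, a log2 fold change of at least 1, median centring, quantile normalization, ChIP minus input, a replicate block, voom on recovered reads, other averages, and leaving out each library.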

Additional observations from a re-analysis of the deposited data

How the results depend on the processing

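The count of 19 increased *Tcf4* peaks was 19 without any 1 of the 6 libraries, under centring, further quantile normalization, an adjusted p under 0.01 and a minimum log2 fold change of 1. It was 18 for ChIP minus input, without the peak nearest the 3' end, 16 with a variance prior without a mean trend, 15 of the 17 whose mean log2 value reached 4, and 12 of 14 tested with voom, which leaves out peaks above 100 reads. Of all 53761 peaks, 428 were increased in the main fit, 9360 for ChIP minus input and 112 without a mean trend. The 18 thus stand beside a far larger background than the 19. Increased peaks numbered 391 of 28360 with the mean filter and 256 of 52431 with voom. In single peaks, 300 of 304 alternative values kept direction and call, and 4 lost the call. The stricter thresholds and the replicate block keep the main fold changes by construction. Centring and quantile normalization hardly move libraries that already share a distribution, so much of this agreement was fixed in advance. Peaks that the mean filter or voom left out are not among the 304. The mean difference over the gene was 1.93 to 2.29 without 1 library and 1.83 weighted by width. WT ChIP minus input over *Tcf4* was -0.65, and -0.19 weighted by width.

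Over all peaks 892 of 53761 were called, and 15872 for ChIP minus input, where 1 input enters all 3 libraries of a genotype and its noise is not in the spread. With input subtracted, 16 of the 53 flanking peaks and 2 of the 10 list peaks were called, compared to 0 and 0. The 16 of 53 were near the share of all peaks in that setting. The count over all peaks was 127 without a mean trend (112 increased and 15 decreased), 573 with voom, 554 at an adjusted p under 0.01 and 511 with a minimum log2 fold change of 1. For the drop without a mean trend the cause was not tested. Without 1 library it was 570 to 805, lowest without WT replicate 2, and 0 to 1 in the flanks, with the 1 call made without KO replicate 1.

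With a replicate block, 872 of all peaks were called, 19 at *Tcf4*, 0 in the flanks and 0 in the lists. Deviations of same-numbered WT and KO libraries had correlations of -0.0013, 0.019 and 0.016 across peaks. Those of differently numbered libraries ran from -0.024 to 0.0074. With so few reads in a peak, these small values cannot decide whether same-numbered libraries were paired. With 14 to 20 reads in the median peak of a library, small differences may not be detectable where peaks are narrow.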
